A study of Arabidopsis thaliana with 18 samples.

Results

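Transcript levels were compared between wild-type (WT) Arabidopsis thaliana roots that had grown with lysoPAF plus ONO and WT roots that had grown with lysoPAF alone. The comparison used every gene of the normalised count table and 6 of the 18 libraries, 3 in each group. All plants were of the Col-0 ecotype, and whole roots were taken at 5 days after germination. The lysoPAF+ONO group stood on half-strength MS medium with 20 µg/mL lysoPAF and 50 µM ONO according to the sample labels, and the lysoPAF group on the same medium with 20 µg/mL lysoPAF only. The study's own text gives the ONO dose in µg/mL and not in µM, so that the dose is uncertain. WT roots on the medium without additions (control, 3 libraries) served as a baseline. The 9 libraries of lpcat, a double mutant of LPCAT1 and LPCAT2, covered the same 3 media. No libraries of roots with ONO and no lysoPAF were analysed here, so that an action of ONO on lysoPAF-treated roots and an action of ONO by itself cannot be told apart.

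Membrane phosphatidylcholine (PC) is turned over by the Lands cycle. A phospholipase A2 (PLA2) removes the acyl chain at the middle carbon of glycerol and leaves lysophosphatidylcholine (LPC), and an LPC acyltransferase (LPCAT) puts an acyl chain back. LysoPAF is an LPC analog whose long chain is held by an ether bond, and ONO (ONO-RS-082) is an inhibitor of PLA2. The study gave ONO together with lysoPAF to ask whether slowing the deacylation step changes the response to a lysolipid, and the transcript data of WT roots show what that addition changed when both acyltransferases were intact.

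The 3 lysoPAF+ONO libraries held between 9147090 and 10874750 counted reads and the 3 lysoPAF libraries between 9337181 and 11392920. On the first principal component of the 9 WT libraries, which carried 30.3% of the variance over 2000 genes, the lysoPAF+ONO libraries lay between 27.2 and 28.5, the lysoPAF libraries between -7.40 and 0.38, and the control libraries at -12.4, -16.3 and -44.9. In both groups 1 library stood apart from its replicates. The chi-square of the counts of replicate 3 of lysoPAF+ONO was 9.63 and 10.3 per gene against replicates 1 and 2, and 1.47 between replicates 1 and 2. That of replicate 1 of lysoPAF was 10.5 and 5.604 against replicates 2 and 3, and 2.92 between replicates 2 and 3. The extensin gene EXT3 took 5.05% of the reads of replicate 3 of lysoPAF+ONO, against 3.14% and 2.98% in its replicates 1 and 2. Replicate 3 of WT control also stood apart, at -32.6 on the second principal component against 4.68 and 3.06 in replicates 1 and 2. Plastid genes took 0.00923% of its reads, against 0.00145% and 0.00163% in those replicates. All comparisons with WT control below include it, and no fit was made with it alone left out. In the lpcat set, control replicate 2 stood apart, with 0.174% of its reads from mitochondrially encoded genes against 0.0270% in each of its replicates. It enters the fit only through the shared estimate of the spread. The acyltransferase genes bore out the genotype labels in part. LPCAT1 had 58.4, 66.4 and 62.9 normalised counts in lpcat with lysoPAF+ONO and 342, 286 and 307 in WT with lysoPAF+ONO. LPCAT2 had 774, 718 and 744 normalised counts in those lpcat libraries and 207, 213 and 195 in those WT libraries, so that reads over this locus were more numerous in the mutant, and where in the gene they lie was not analysed here.

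Values are counts divided by a size factor per library, called normalised counts below. Differences are log2 fold changes of lysoPAF+ONO over lysoPAF, on the log2(normalised count + 1) scale, with standard errors (SE) and Benjamini-Hochberg adjusted p-values from limma over 23760 genes. A gene was called when its adjusted p was under 0.05 and its fold change over 1 in size on the log2 scale, and members of gene lists were counted at an adjusted p under 0.05 alone. By the call rule 271 genes were higher with ONO (1.14% of those tested) and 90 were lower (0.379%). At an adjusted p under 0.05 alone 884 genes were higher (3.72%) and 421 were lower (1.77%), 1305 in all (5.49%). An unadjusted p under 0.05 was found for 4627 genes (19.5%), the share to set beside list counts at that level for this step. The median of the called genes was 1.58 among the 271 and -1.54 among the 90, while the median over all genes was 0.00. A change beyond 2 on the log2 scale was found in 87 of the called genes that were higher and 17 that were lower. The lysoPAF+ONO and lysoPAF libraries did not overlap in 270 of the 271 genes called higher and in 90 of the 90 called lower. Over all genes tested, the lysoPAF+ONO libraries all lay above the lysoPAF libraries in 15.1% and all lay below them in 12.6%. With replicates 1, 2 and 3 of lysoPAF+ONO left out in turn, the call rule gave 198, 206 and 238 higher genes and 55, 59 and 74 lower ones. With replicates 1, 2 and 3 of lysoPAF left out in turn, it gave 225, 198 and 204 higher and 46, 56 and 57 lower. Of those without replicate 3 of lysoPAF+ONO, 205 and 54 were among the genes of the whole set, and of those without replicate 1 of lysoPAF 198 and 43. Leaving out lpcat control replicate 2, which bears on these counts only through the shared spread, gave 374 higher and 154 lower. At an adjusted p under 0.05 alone, 490 to 661 genes were higher and 162 to 273 lower without 1 of the 6 compared libraries, and 1601 and 897 without lpcat control replicate 2. The counts of list members moved with these libraries in the same way. Moves by over 1.5 times are given below for the larger counts, but not for every count of 2 or fewer. The root cap and peroxisomal beta-oxidation rises and the sulfur and XTH falls, for example, went from 2 to 1 without some single compared libraries. In the other steps of WT roots, lysoPAF+ONO against control gave 474 higher genes (1.99%) and 110 lower (0.463%), and lysoPAF against control gave 68 higher (0.286%) and 20 lower (0.0842%), or 376 (1.58%) and 214 (0.901%) at an adjusted p under 0.05 alone. These comparisons share libraries with the ONO step, so their values stand beside each other below without an overlap being counted.

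The largest rise of a single gene was in indolic defence metabolism, the pathway that turns tryptophan into camalexin and substituted indole glucosinolates, antimicrobial compounds of the mustard family. CYP71A12 (AT2G30750, chromosome 2, 13099486-13101371), a cytochrome P450 that converts indole-3-acetaldoxime in this pathway, had 5301, 5151 and 5247 normalised counts with lysoPAF+ONO, 218, 248 and 217 with lysoPAF, and 168, 172 and 164 in control. The lysoPAF+ONO mean was 23.0 times the lysoPAF mean, and the groups were far apart (log2 fold change 4.52, SE 0.13, adjusted p = 1.07e-14). Its near-identical neighbour CYP71A13 (AT2G30770) had 81.5, 108 and 85.9 normalised counts with lysoPAF+ONO against 5.04, 6.62 and 8.41 with lysoPAF (3.61, SE 0.45, adjusted p = 3.58e-05). Reads shared by this pair may have been split between them by the counting.

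CYP81F2 (AT5G57220), which hydroxylates indole glucosinolates, had 1234, 1167 and 1208 normalised counts with lysoPAF+ONO against 136, 150.3 and 128 with lysoPAF (3.11, SE 0.11, adjusted p = 3.52e-13). IGMT2 (AT1G21120), a methyltransferase that acts after CYP81F2 and has close paralogs beside it, had 1409, 1399.8 and 1322 against 184, 171 and 182 (2.94, SE 0.15, adjusted p = 1.34e-10). CYP79B2, which makes the indole-3-acetaldoxime that feeds these branches, had a smaller difference, with 4282, 4126 and 4531 normalised counts with lysoPAF+ONO and 2892, 2798 and 3023 with lysoPAF (0.57, SE 0.09, adjusted p = 0.000861). Of 12 tested genes of the defence list, 7 rose and 0 fell, with a median log2 fold change of 0.89. The remaining members that passed were named after their values were seen. FRK1, a receptor kinase induced by bacterial flagellin, had 57.2, 48.5 and 40.1 normalised counts with lysoPAF+ONO against 8.40, 8.51 and 2.103 with lysoPAF. MYB51, a regulator of indole glucosinolate synthesis, had 404, 337 and 418 against 249.6, 249.6 and 213, and CYP82C2 had 51.5, 51.6 and 55.0 against 10.9, 14.2 and 13.7. In the step of lysoPAF against control, 0 of the 12 passed (1 at an unadjusted p under 0.05), and CYP71A12 stood at 0.44 (adjusted p = 0.0795). Of the glucosinolate synthesis list, which holds other steps of the pathway, 1 of 9 fell and 0 rose: SOT17, a sulfotransferase, had 468, 466 and 456 against 555, 579.6 and 591, a fall that held in 12 of 18 alternatives (adjusted p from 0.00889 to 0.134).

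**Figure D1:**
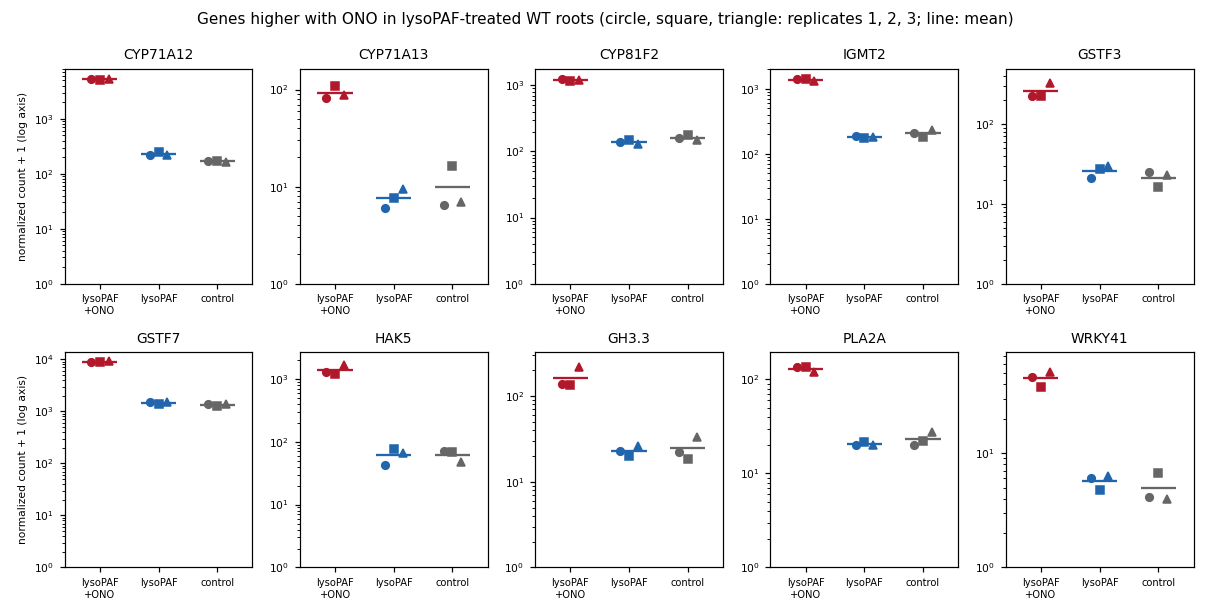
Normalised counts plus 1 (log axis) of 10 genes that were higher with ONO, for the lysoPAF+ONO, lysoPAF and control libraries of WT roots; circle, square and triangle are replicates 1, 2 and 3, and the line is the mean. For CYP71A12 the lysoPAF+ONO libraries sit between 5151 and 5301, and the lysoPAF and control libraries between 164 and 248.

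Sequences before annotated gene starts are shown for 5 strongly changed genes, chosen because their windows hold known elements, with the element in capitals. The windows are the 250 bases before the start, from RefSeq annotation of TAIR10.1, written in the direction of the gene. For CYP81F2 (chr5:23187590-23187839, plus strand) and GSTF7 (chr1:659981-660230, minus strand) the capitals mark W boxes, the binding letters of WRKY factors, searched as TTGACC or TTGACT on both strands.
CYP81F2: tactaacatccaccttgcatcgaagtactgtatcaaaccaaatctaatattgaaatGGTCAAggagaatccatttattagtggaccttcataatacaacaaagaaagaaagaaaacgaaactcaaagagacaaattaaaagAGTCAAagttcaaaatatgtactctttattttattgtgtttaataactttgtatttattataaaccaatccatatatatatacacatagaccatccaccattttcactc
GSTF7: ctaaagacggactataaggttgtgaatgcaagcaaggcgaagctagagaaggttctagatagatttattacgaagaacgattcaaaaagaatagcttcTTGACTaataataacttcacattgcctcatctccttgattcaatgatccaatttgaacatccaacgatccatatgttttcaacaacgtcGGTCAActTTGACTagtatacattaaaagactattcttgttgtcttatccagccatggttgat
CYP81F2 had 2 such matches, at 194 and 109 bases before the start, and GSTF7 had 3, at 152, 63 and 55. A W box of this form was in 46.2% of the 260 windows of genes called higher, in 31.7% of the 82 windows of genes called lower and in 28.7% of all 20944 windows of tested genes.

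Glutathione S-transferases (GSTs), which join glutathione to reactive compounds, had 7 members that rose, 5 of the phi class and 2 of the tau class. GSTF7 (AT1G02920, chromosome 1, 658578-659980) had 8871, 8865 and 9506 normalised counts with lysoPAF+ONO, 1549.5, 1407 and 1491 with lysoPAF, and 1381, 1254 and 1361 in control (2.61, SE 0.12, adjusted p = 4.95e-11). GSTF6, its close paralog on the same chromosome, had 3781, 4040.4 and 4619 against 708, 606 and 675 (2.64, SE 0.16, adjusted p = 1.98e-09). GSTF3 had 224, 220.1 and 327 against 20.17, 26.5 and 28.4, which is 10.3 times the lysoPAF mean (3.299, SE 0.29, adjusted p = 5.1e-07). GSTF2, near-identical to GSTF3 and named after its values were seen, was far more abundant, with 8937, 8754 and 12057 normalised counts with lysoPAF+ONO and 4315, 4555 and 4659.9 with lysoPAF. GSTU10, of the tau class, had 312, 322 and 302 against 142, 114 and 108. Of 39 tested tau and phi GSTs, 7 rose, 1 fell and the median was 0.01. The 1 that fell, GSTU18, also named after its values were seen, had 20.6, 26.3 and 18.3 normalised counts with lysoPAF+ONO and 57.1, 38.8 and 41.0 with lysoPAF, and no GST fell without replicate 1 or 3 of lysoPAF+ONO or replicate 1 of lysoPAF.

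Of 32 tested P450s, glucosyltransferases and transporters of the list, 6 rose and 2 fell. Without replicate 1 of lysoPAF 2 rose, without replicate 2 of lysoPAF+ONO 3 rose, and 4 fell without lpcat control replicate 2. The vacuolar ABC transporter gene ABCC4 had 1382, 1342 and 1306 normalised counts with lysoPAF+ONO against 643, 841 and 854 with lysoPAF, and ABCC3 had 718, 705 and 700.0 against 462, 547 and 539. DTX1, an efflux carrier, had 31.9, 31.6 and 29.8 against 6.72, 6.62 and 12.6 (1.79, adjusted p = 0.00936), a rise that was past the threshold in 17 of 18 alternatives. OPR1, an oxophytodienoate reductase, moved the other way, with 1649.5, 1860.1 and 1839 against 2762, 2508 and 2409.8 (-0.52, adjusted p = 0.00218), and its control libraries had 1774, 1775 and 1838. Of 12 genes of the mitochondrial dysfunction list, 1 rose: NDB2, an external NADH dehydrogenase, had 693, 618 and 598 against 409, 434 and 426 (0.59, adjusted p = 0.0101), past the threshold in 16 of 18 alternatives.

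Genes of unknown or partly known role were among the largest rises. AT1G26410 and AT1G26380, a pair of berberine bridge family genes for FAD-binding proteins, had 359.9, 371 and 406 against 21.0, 14.2 and 21.0 normalised counts, and 754, 755 and 820.3 against 115, 103 and 85.2. AT1G26240, which encodes a proline-rich extensin-like protein, had 668, 597 and 1304 against 44.5, 76.6 and 56.8, with the highest value in replicate 3. RK2, a receptor kinase gene, had 35.6, 36.9 and 40.1 with lysoPAF+ONO and 0.840, 4.73 and 4.21 with lysoPAF. In all 4 the lysoPAF+ONO and lysoPAF libraries were well separated, with log2 fold changes between 2.94 and 4.29. The AT1G26380 family and the extensins hold close paralogs among which reads could be split.

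Among WRKY transcription factors, regulators of defence and senescence, 3 of 33 rose and 2 fell. WRKY41 was low in every group and had 45.0, 36.9 and 50.4 normalised counts with lysoPAF+ONO against 5.04, 3.78 and 5.26 with lysoPAF (2.98, SE 0.56, adjusted p = 0.00293). WRKY31 had 277, 280.2 and 353 against 145, 165 and 162. WRKY53 had 90.0, 106 and 108 against 46.2, 42.5 and 51.5. WRKY60 fell, with 288, 313 and 253 against 479, 471 and 405 (-0.67, adjusted p = 0.00157). WRKY54, named after its values were seen, had 24.4, 10.5 and 18.3 against 37.8, 35.9 and 38.9 (adjusted p = 0.041), and the list had 1 member that fell without any 1 of the 6 compared libraries other than replicate 1 of lysoPAF+ONO.

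Of 8 tested genes of the Lands cycle, whose deacylation step ONO was given to slow, 0 passed in either direction by limma and the median was 0.01. At an unadjusted p under 0.05 there was 1, and 0 passed in any alternative, edgeR and DESeq2 included. LPCAT1, with 342, 286 and 307 normalised counts with lysoPAF+ONO and 308, 269 and 270.2 with lysoPAF, differed by 0.14 (SE 0.14, adjusted p = 0.646). LPCAT2, with 207, 213 and 195 against 194, 232 and 186, differed by 0.01 (SE 0.10, adjusted p = 0.975). Among the secretory PLA2 genes, PLA2-ALPHA had 64.7, 65.3 and 66.4 normalised counts with lysoPAF+ONO and 84.9, 95.5 and 77.8 with lysoPAF. These values do not overlap, but the difference of -0.38 (SE 0.16) did not pass (adjusted p = 0.184). PLA2-BETA had 15.9, 12.6 and 18.3 against 22.7, 24.6 and 32.6 (-0.73, SE 0.36, adjusted p = 0.28). PLA2-GAMMA and PLA2-DELTA had at most 1.15 normalised counts in any lysoPAF+ONO library and 3.15 in any lysoPAF library, so that a difference was not detectable at this depth.

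Other phospholipases did change. Of 20 tested lipases and PC turnover genes, 5 rose and 0 fell, with a median of 0.30. PLA2A (AT2G26560, also called PLP2), a patatin-like acyl hydrolase that is induced in plant defence, had 134, 135 and 120.3 normalised counts with lysoPAF+ONO, 19.3, 20.8 and 18.9 with lysoPAF, and 19.0, 21.1 and 26.9 in control (2.66, SE 0.24, adjusted p = 8.4e-07). GDPD2, a glycerophosphodiester phosphodiesterase, and PLDDELTA, a phospholipase D, showed 0.46 and 0.29 (adjusted p = 0.0289 and 0.0257), past the threshold in 12 and 13 of 18 alternatives. Of the 20, 2 or 3 rose without 1 of the 6 compared libraries, and without lpcat control replicate 2, 11 did. Of 7 PC synthesis genes 1 rose. XPL1 (AT3G18000, also called PEAMT), the methyltransferase that makes phosphocholine, had 2449, 2452 and 2734 normalised counts with lysoPAF+ONO, 1420.1, 1726 and 1678 with lysoPAF, and 3171, 2954 and 3196 in control. Its difference was 0.67 for lysoPAF+ONO against lysoPAF (SE 0.09, adjusted p = 5.71e-05) and -0.95 for lysoPAF against control (adjusted p = 1.58e-05).

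Of 36 tested genes of stress in the endoplasmic reticulum (ER), 7 fell, 1 rose and the median was -0.21. When unfolded proteins build up in the ER, the sensor IRE1 and membrane-bound bZIP factors raise chaperones such as the BiP proteins, which is called the unfolded protein response. BIP3 (AT1G09080, chromosome 1, 2929217-2931850), the stress-inducible BiP, had 32.8, 35.8 and 36.7 normalised counts with lysoPAF+ONO, 439, 286 and 397 with lysoPAF, and 0.791, 2.88 and 0.998 in control. The lysoPAF+ONO mean was thus 0.094 of the lysoPAF mean, and the 3 groups were fully separate (log2 fold change -3.36, SE 0.73, adjusted p = 0.00884 for lysoPAF+ONO against lysoPAF; 7.26, adjusted p = 5.19e-05 for lysoPAF against control). TIN1 (AT5G64510), first known as a tunicamycin-induced gene, had 8.44, 3.16 and 5.73 with lysoPAF+ONO, 31.1, 24.6 and 31.5 with lysoPAF, and 18.202, 19.2 and 19.0 in control (-2.22, SE 0.31, adjusted p = 0.000181). Both falls passed in every alternative tried.

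The windows before BIP3 (chr1:2931851-2932100, minus strand) and TIN1 (chr5:25784154-25784403, plus strand) are shown because they carry elements known from ER stress genes. Capitals mark the ER stress element, searched as CCAAT, any 10 bases, then CACG, in BIP3, and TGACGTGG, an element that includes the letters TGACG, in TIN1, both on either strand.
BIP3: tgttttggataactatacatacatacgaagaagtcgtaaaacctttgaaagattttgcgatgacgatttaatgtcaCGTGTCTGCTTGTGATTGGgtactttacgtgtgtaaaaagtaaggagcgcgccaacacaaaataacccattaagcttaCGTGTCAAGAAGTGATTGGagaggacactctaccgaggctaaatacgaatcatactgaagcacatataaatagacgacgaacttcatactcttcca
TIN1: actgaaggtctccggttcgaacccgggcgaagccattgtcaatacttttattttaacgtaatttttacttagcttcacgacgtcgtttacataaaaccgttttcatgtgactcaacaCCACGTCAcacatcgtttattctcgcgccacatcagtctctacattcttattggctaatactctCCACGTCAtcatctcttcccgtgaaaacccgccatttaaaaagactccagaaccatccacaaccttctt
The matches of BIP3 lay 174 and 96 bases before the start and those of TIN1 133 and 69. The ER stress element was in 2 of the 82 windows of genes called lower (2.44%), in 0 of 260 of genes called higher and in 162 of all 20944 (0.773%). TGACGTGG was in 3.66%, 1.15% and 1.49% of these windows.

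SARA1A (AT1G09180), a SAR1 GTPase that starts COPII vesicle budding from the ER, had 7.50, 4.21 and 4.58 normalised counts with lysoPAF+ONO, 26.0, 23.64 and 26.3 with lysoPAF, and 0, 0 and 2.00 in control. Its fall of 2.07 (a log2 fold change of -2.07, SE 0.59, adjusted p = 0.0434) passed in 10 of 18 alternatives, with adjusted p from 0.00102 to 0.133 and 0.114 without replicate 3 of lysoPAF+ONO. AT1G18830, which the study calls SEC31A and which codes for a COPII coat protein, had 17.81, 20.0 and 43.5 against 59.7, 53.9 and 63.1, which do not overlap. Its difference of -1.20 (SE 0.93) did not pass (adjusted p = 0.531), and passed in 1 of 18 alternatives (lowest adjusted p = 0.0237). Its lpcat control libraries, which enter the shared spread, had 1.04, 165 and 3.73. BZIP60, a transcription factor of the response, had 313, 307 and 300.2 against 411, 292 and 345 (-0.17, adjusted p = 0.691), so that its groups overlapped. NAC103, a factor downstream of BZIP60, had 15.9, 12.6 and 18.3 against 17.65, 38.8 and 23.1. The co-chaperone gene ATERDJ3A had 39.4, 31.6 and 25.2 against 60.5, 70.9 and 45.2, which do not overlap. Its difference of -0.86 did not pass (adjusted p = 0.126), and passed in 1 of 18 alternatives (lowest adjusted p = 0.00803). Of the study's other trafficking genes, PRA1.B5, PRA1.F1, SEC1B, ARFB1A and AT1G05020 (an ENTH/ANTH/VHS family gene) had log2 fold changes of -0.25, 0.28, 0.08, 0.51 and 0.65 and none passed. Among the 10 genes of the list of response and trafficking genes the study names, 1 fell, 0 rose and the median was -0.21. That list was chosen by the study on these samples and is not independent evidence of its direction. Without any 1 of the 6 compared libraries 0 of the 10 fell, and without lpcat control replicate 2, 3 did.

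ATERDJ3B and CNX1, both with high counts, were among the 7 ER genes that fell. ATERDJ3B, a co-chaperone of BiP, had 1045, 1048 and 1013 normalised counts with lysoPAF+ONO against 1564, 1639 and 1494 with lysoPAF (-0.60, SE 0.10, adjusted p = 0.000802). CNX1, the lectin chaperone calnexin, had 4704, 4877 and 4584 against 6209, 6490.1 and 6484 (-0.44, SE 0.09, adjusted p = 0.00498). For these 2 genes lysoPAF and control did not differ past the threshold (-0.00 and -0.06), so that with lysoPAF+ONO they stood below both other WT groups. The 1 ER stress gene that rose was the sensor IRE1A, named after its values were seen, with 591, 542 and 601 against 458, 465 and 473. In the ER list 4 or 5 fell and 0 or 1 rose without 1 of the 6 compared libraries, and without lpcat control replicate 2, 13 fell and 1 rose.

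**Figure D2:**
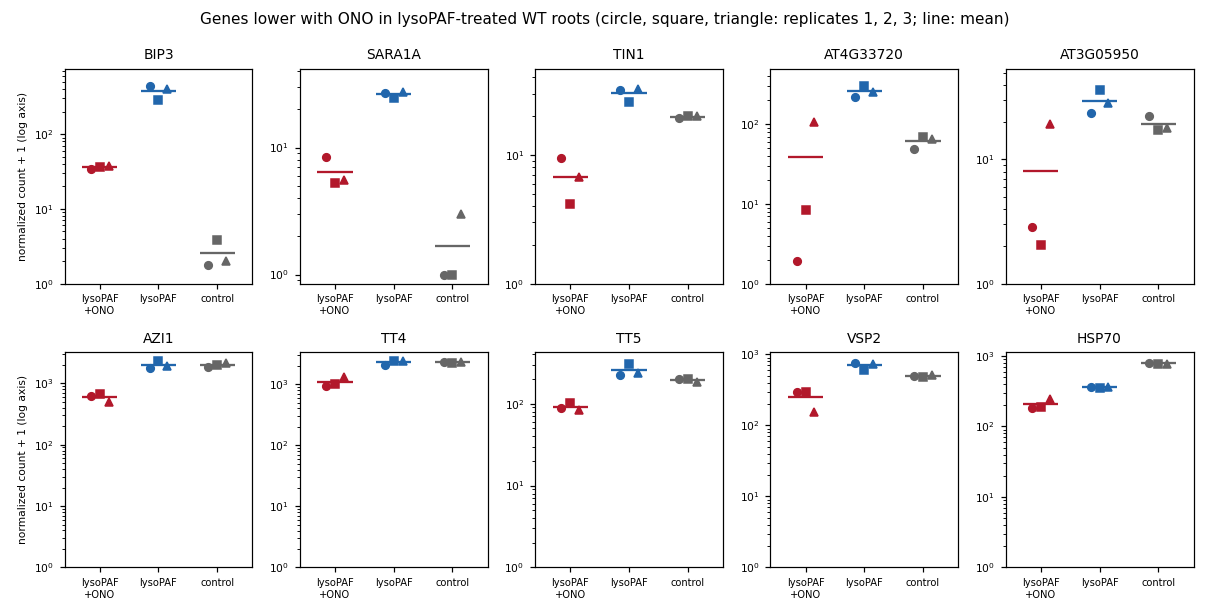
Normalised counts plus 1 (log axis) of 10 genes that were lower with ONO, for the lysoPAF+ONO, lysoPAF and control libraries of WT roots; circle, square and triangle are replicates 1, 2 and 3, and the line is the mean. BIP3 lies between 32.8 and 36.7 with lysoPAF+ONO and between 286 and 439 with lysoPAF; for AT4G33720 and AT3G05950 replicate 3 of lysoPAF+ONO lies above its 2 replicates.

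Of 24 tested heat shock genes, which encode chaperones and heat shock factors, 4 fell, 0 rose and the median was -0.33. HSP70 (AT3G12580), a cytosolic chaperone, had 180.0, 191 and 246 normalised counts with lysoPAF+ONO, 364, 348 and 368 with lysoPAF, and 803, 777 and 768 in control (-0.82, SE 0.12, adjusted p = 0.000204). HSP90.1 followed the same order of groups, with 224, 213 and 251, then 372, 369 and 402, and 677, 696 and 680.5 in control. So did AT5G48570, an FKBP-type peptidyl-prolyl isomerase, with 241, 226 and 281, then 326, 394 and 389, and 556, 528 and 472 in control. HSP18.2, a small heat shock protein, had 34.7, 27.4 and 27.5 with lysoPAF+ONO and 71.4, 67.1 and 73.6 with lysoPAF, while its control libraries lay between 50.8 and 70.4. The falls of HSP90.1 and AT5G48570 each passed in 13 of 18 alternatives. Of the 24, 2 to 5 fell without 1 of the 6 compared libraries, and without lpcat control replicate 2, 8 did.

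The largest falls outside the ER included genes for secreted proteins in which replicate 3 of lysoPAF+ONO differed from replicates 1 and 2. AT4G33720, a secreted protein of the CAP family that includes PR-1, had 0.937, 7.37 and 105 normalised counts with lysoPAF+ONO, 219, 297 and 253 with lysoPAF, and 48.3, 68.1 and 63.9 in control. Its log2 fold change of -4.41 (SE 0.92, adjusted p = 0.00647) became -5.99 without that replicate, and it passed in 16 of 18 alternatives. It did not pass with DESeq2 (adjusted p = 0.0729) or with limma on only the compared libraries (0.145). AT3G05950, a germin-like cupin, had 1.87, 1.05 and 18.3 against 22.7, 35.0 and 27.3, and AT5G19890, a class III peroxidase, had 18.7, 20.0 and 136 against 137, 177 and 147. These 2 falls, of -2.58 and -2.00, became -3.57 and -2.92 without replicate 3 and passed in 9 and 6 of 18 alternatives. AT5G38940, also a germin-like cupin, was separated in all libraries, with 59.98, 55.8 and 96.2 against 249, 270.4 and 239.7 (-1.87, SE 0.39, adjusted p = 0.00644).

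AZI1 (AT4G12470), a lipid transfer protein of systemic immunity, had 609, 667 and 488 normalised counts with lysoPAF+ONO, 1762, 2268 and 1910.4 with lysoPAF, and 1838, 1976 and 2130.2 in control (-1.75, SE 0.33, adjusted p = 0.00316). AT1G23200, of the invertase and pectin methylesterase inhibitor superfamily, had 7.50, 7.37 and 4.58 against 40.3, 26.5 and 31.5. AT3G18450, a PLAC8 family gene, had 13.1, 25.3 and 13.7 against 74.8, 77.5 and 66.2, with 26.1, 29.7 and 14.97 in control. The sulfotransferase gene SOT7 had 4.69, 5.27 and 3.44 against 16.0, 16.1 and 22.1. AT5G05365, of a heavy metal transport superfamily, had 0.937, 5.27 and 2.29 against 13.4, 11.3 and 13.7. These counts were low, and its fall passed in 9 of 18 alternatives (adjusted p from 0.00172 to 0.173).

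Of 7 tested genes of the flavonoid list 4 fell and 1 rose, with a median of -0.58, and the 4 encode successive enzymes of the pathway. TT4 (chalcone synthase, the first step) had 925, 1002 and 1303 normalised counts with lysoPAF+ONO, 2072, 2423 and 2411 with lysoPAF, and 2267, 2253 and 2328 in control (-1.11, SE 0.11, adjusted p = 4.2e-06). TT5 (chalcone isomerase) had 87.2, 101 and 83.6 against 224, 304 and 237 (-1.47, SE 0.16, adjusted p = 8.7e-06). F3H, the flavanone hydroxylase, had 329.9, 302 and 373 against 511, 479 and 512, and FLS1, flavonol synthase, had 310.2, 327 and 453 against 732, 729 and 728. The 1 that rose, MYB12, a regulator of flavonol synthesis named after its values were seen, had 83.4, 90.6 and 97.4 against 53.8, 49.2 and 62.0 (0.71, adjusted p = 0.0202), and it no longer passed without replicate 2 or 3 of lysoPAF+ONO or replicate 1 or 2 of lysoPAF.

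The general phenylpropanoid pathway, which supplies flavonoids, lignin and coumarins, had 15 tested genes, of which 4 rose and 0 fell, with a median of 0.27. Without 1 of the 6 compared libraries 1 to 3 rose, and without lpcat control replicate 2, 9 did. PAL4, a phenylalanine ammonia-lyase, had 1057, 1165 and 1025 normalised counts with lysoPAF+ONO against 859, 725 and 775 with lysoPAF (0.46, adjusted p = 0.00597). 4CL1, 4CL2 and CCR1, which activate and reduce the acids, showed 0.35, 0.31 and 0.29 (adjusted p = 0.019, 0.019 and 0.0358), past the threshold in 14, 15 and 11 of 18 alternatives.

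Of 19 tested auxin response genes 5 rose and 0 fell, with a median of 0.32. GH3 enzymes join amino acids to indole-3-acetic acid and are known as early auxin-induced genes. GH3.3 (AT2G23170) had 136, 135 and 218 normalised counts with lysoPAF+ONO, 21.8, 18.9 and 25.2 with lysoPAF, and 21.4, 17.3 and 31.9 in control (2.80, SE 0.22, adjusted p = 1.56e-07). BRU6 (also GH3.2) had 393, 386 and 415 against 103, 94.6 and 115, DFL1 (GH3.6) had 651, 647 and 673 against 248, 234 and 203, and WES1 (GH3.5) had 665, 733 and 915 against 289, 254 and 298. For these 4 genes lysoPAF and control did not differ past the threshold, with adjusted p between 0.166 and 0.937.

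The window before GH3.3 (chr2:9866563-9866812, minus strand) is shown for TGTCTC, the letters of the auxin response element, here searched on both strands and in capitals.
GH3.3: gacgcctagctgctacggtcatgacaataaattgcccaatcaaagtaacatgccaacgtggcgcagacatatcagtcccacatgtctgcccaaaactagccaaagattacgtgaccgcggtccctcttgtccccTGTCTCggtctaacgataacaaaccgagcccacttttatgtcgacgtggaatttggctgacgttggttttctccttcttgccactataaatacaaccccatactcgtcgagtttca
The single match lay 116 bases before the start. TGTCTC was in 14.6% of the windows of genes called higher, in 6.10% of those called lower and in 10.8% of all windows.

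Of 12 auxin carriers, 3 rose and 0 fell, each by less than 1 on the log2 scale. The efflux carrier gene PIN4 had 622, 693 and 534 normalised counts with lysoPAF+ONO against 399, 395 and 379 with lysoPAF. ABCB4, a carrier of the root epidermis, had 4332, 4386 and 4034 against 2922, 3132 and 3135. Of 14 ethylene genes 1 rose and 0 fell, while 3 fell without lpcat control replicate 2. EFE (ACO4), an oxidase of ethylene synthesis, had 622, 569 and 538 against 356, 325 and 307 (0.81, adjusted p = 0.00183). Of 10 cytokinin response genes 1 rose, ARR4, with 1004, 874 and 1112 against 802, 682 and 778 (adjusted p = 0.0454, past the threshold in 11 of 18 alternatives and 0.178 without replicate 3 of lysoPAF+ONO). Abscisic acid and dehydration genes had 5 of 28 that rose and 0 that fell, with a median of 0.40. RD22 had 146, 153 and 195 against 58.8, 53.9 and 55.7 (1.52, adjusted p = 7.56e-05). P5CS1, of proline synthesis, had 890.4, 909 and 801 against 624, 554 and 638. NCED3, the regulated step of abscisic acid synthesis, had 43.1, 41.1 and 36.7 against 16.8, 15.1 and 9.46, and HAI1, a phosphatase of the pathway, had 55.3, 81.1 and 42.4 against 42.9, 21.7 and 24.2, which overlap. The last 2 passed in 15 and 12 of 18 alternatives. Without 1 of the 6 compared libraries 2 to 6 of the 28 rose, and without lpcat control replicate 2, 9 rose and 1 fell.

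Of 27 tested genes of the jasmonate list 3 rose and 2 fell, with a median of 0.16, and both that fell encode storage proteins. The vegetative storage protein genes VSP2 and VSP1, near-identical copies among which reads could be split, had 299, 291 and 154 normalised counts with lysoPAF+ONO against 759.6, 612 and 733 with lysoPAF (-1.55, SE 0.22, adjusted p = 0.000145), and 587, 559 and 420.5 against 1034, 850.0 and 898 (-0.84, SE 0.14, adjusted p = 0.000863). AT5G05600, a 2-oxoglutarate-dependent oxygenase, had 811, 770.0 and 997 against 589.9, 575 and 629.8. OPR3, an enzyme of jasmonate synthesis, had 309, 301 and 297 against 247, 235 and 229 (0.35, adjusted p = 0.0391), past the threshold in 11 of 18 alternatives. The counts were 0 higher and 2 lower when replicate 3 of lysoPAF+ONO was left out, and 1 or 2 higher and 2 lower without another 1 of the 6 compared libraries.

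Among nutrient transporters the largest rise was that of HAK5 (AT4G13420, chromosome 4, 7796782-7802251), the high-affinity potassium transporter that roots raise when potassium is short. It had 1277, 1191 and 1684 normalised counts with lysoPAF+ONO, 42.0, 74.7 and 66.2 with lysoPAF, and 68.9, 67.1 and 45.9 in control. The lysoPAF+ONO mean was 22.7 times the lysoPAF mean (4.51, SE 0.42, adjusted p = 1.32e-06), and the lysoPAF and control libraries overlapped. Of 23 nitrate genes 5 rose and 0 fell, with a median of 0.04. The ammonium transporter AMT1;1 had 1224, 1264 and 1106 against 797, 794 and 779. The nitrate reductase gene NIA1 had 3439, 3300.0 and 2897 against 1697, 2215 and 2061. WR3 (NRT3.1), a partner of high-affinity nitrate carriers, had 275, 256 and 329.9 against 164, 145 and 165, and the vacuolar exchanger gene CLC-A had 1740.5, 1794 and 1636 against 1361, 1161 and 1313. NRT1.1, a nitrate transporter and sensor named after its values were seen, had 3709, 3668 and 4184 against 1713, 1837 and 1867.

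Of 27 iron-deficiency genes 5 rose and 1 fell, with a median of 0.18. The number that rose was 2 or 3 without 1 of the 6 compared libraries. FRU (FIT), the bHLH factor that drives iron uptake, had 244, 209 and 212 normalised counts with lysoPAF+ONO, 392, 406 and 394 with lysoPAF, and 257, 254 and 251 in control (-0.84, SE 0.10, adjusted p = 1.47e-05). AT3G13610, a 2-oxoglutarate-dependent oxygenase listed among iron-deficiency genes, had 1561, 1424 and 1630.3 against 613, 572 and 641 (1.34, SE 0.15, adjusted p = 1.54e-05). ABCG37, an exporter of phenolic compounds, had 3212, 2978 and 3458 against 2137, 2353 and 2365. CYP82C4, a P450 of iron-deficient roots, had 16.9, 31.6 and 36.7 against 3.36, 2.84 and 3.15 (2.77, adjusted p = 0.0226), past the threshold in 13 of 18 alternatives. FRO5, a metal reductase gene found by its large change, had 88.1, 61.1 and 61.9 against 4.20, 2.84 and 6.31 (3.74, SE 0.51, adjusted p = 0.000124). Of 6 iron storage genes 0 passed, and 0 had an unadjusted p under 0.05.

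Of 15 sulfur genes 2 fell and 0 rose: APR3, of sulfate reduction, had 1214, 1167 and 1291 normalised counts with lysoPAF+ONO against 1959, 1767 and 1814 with lysoPAF (-0.59, SE 0.07, adjusted p = 3.62e-05), and the sulfate transporter SULTR2;1 had 329, 343 and 386 against 418, 547 and 477 (adjusted p = 0.0358, past the threshold in 13 of 18 alternatives). Without lpcat control replicate 2, 3 of the 15 fell and 3 rose. Of 26 phosphate starvation genes 2 rose and 1 fell, with a median of 0.35. Without 1 of the 6 compared libraries 1 or 2 rose, and without lpcat control replicate 2, 11 did. RNS1, a secreted ribonuclease, had 34.7, 27.4 and 12.6 against 3.36, 5.67 and 2.103 (2.42, adjusted p = 0.00177). PEPC1, a phosphoethanolamine and phosphocholine phosphatase, had 8.44, 12.6 and 4.58 against 0.840, 0 and 3.15 and passed in 9 of 18 alternatives. AT5G03545, annotated as expressed in phosphate starvation, had 1235, 1218 and 1518 with lysoPAF+ONO, 2173, 2063 and 2189 with lysoPAF, and 856, 749 and 799 in control (-0.70, adjusted p = 0.0332, past the threshold in 12 of 18 alternatives).

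Suberin is the waxy polyester that seals the endodermis. Of 15 tested suberin genes 7 rose and 0 fell, with a median of 0.37. Without replicates 1, 2 and 3 of lysoPAF 3, 6 and 4 rose, and without replicates 1, 2 and 3 of lysoPAF+ONO 4, 5 and 6 did. CYP86A1, a fatty acid hydroxylase, had 1818, 2032 and 1661 normalised counts with lysoPAF+ONO against 981, 774 and 924 with lysoPAF (1.04, SE 0.16, adjusted p = 0.000393). GPAT5, an acyltransferase, had 319, 342 and 302 against 162, 162 and 138 (1.06, SE 0.21, adjusted p = 0.00494). The exporter gene ABCG20 had 430.2, 453 and 401 against 229, 240.2 and 253, and its control libraries had 150.4, 146 and 143. KCS2, which lengthens fatty acids, had 880.1, 850.0 and 759.6 against 512, 645 and 537. In bulk roots, more cells of a type and more RNA per cell cannot be told apart, so these values do not say whether more cells carried suberin. Of 10 Casparian strip and endodermis genes 0 passed (3 at an unadjusted p under 0.05), with a median of -0.03, and their summed count ranged over 8052-9084 with lysoPAF+ONO and 8715-9136 with lysoPAF.

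The other cell type lists show which tissues the libraries held. Of 26 root hair genes 6 rose and 1 fell, with a median of 0.28. Without 1 of the 6 compared libraries 1 to 6 rose, the fewest without replicate 2 of lysoPAF+ONO, and without lpcat control replicate 2, 12 did. Their summed count was 33799-37331 with lysoPAF+ONO, 24370.3-31874 with lysoPAF and 21185-24966 in control. PRP1, a proline-rich wall protein, had 3278, 3418 and 3243 against 1317, 2306 and 1808 normalised counts. SHV2 (COBL9), needed for hair tip growth, had 859, 915 and 772 against 589, 640.1 and 667, and the kinase gene RHS16 had 426, 441 and 319.6 against 276, 261 and 272. RHS13 fell, with 539.9, 525 and 525 against 668, 699 and 727. SHV2 and RHS13 passed in 16 of 18 alternatives and RHS16 in 15. Of 6 root cap genes 2 rose, and their summed count was 1344-1571 with lysoPAF+ONO and 934-976 with lysoPAF. CEL5, a cellulase of the root cap, had 724, 726 and 851 against 475, 487 and 499, and AT1G65570, a pectin lyase-like gene, had 130.3, 146 and 121 against 75.6, 51.1 and 76.8. The summed count of the shoot markers was 2859-3448 with lysoPAF+ONO and 3359-3783 with lysoPAF, against 4023-8946 in control. The part of these cell types in the other results was not tested.

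Of 19 xylem genes 2 rose, both proteases or nucleases of dying xylem cells: MC9, a metacaspase, had 365, 364 and 314 against 186, 154 and 172 normalised counts (1.02, SE 0.14, adjusted p = 0.000125), and BFN1, a nuclease, had 96.5, 119 and 69.9 against 46.2, 45.4 and 37.9. The summed xylem count was 5638-6254 with lysoPAF+ONO and 5216-5245 with lysoPAF. Of 6 stem cell niche genes 2 rose, AIL6 (PLT3) with 1157, 1163 and 1335 against 830.2, 945 and 941 and PLT1 with 361, 386 and 383 against 276, 281 and 305, and 0 of the 6 passed without replicate 3 of lysoPAF+ONO or replicate 1 of lysoPAF. Of 5 genes of the non-hair epidermis 1 rose, TTG1 (0.38, adjusted p = 0.0378), which did not pass without any 1 of the 6 compared libraries. Of 8 phloem, 24 cell cycle, 23 shoot photosynthesis and 10 seed storage genes 0 passed in either direction, with medians of 0.17, 0.01, -0.24 and -0.02. At an unadjusted p under 0.05 there were 2, 2, 1 and 2, and over all alternatives, edgeR and DESeq2 included, at most 1 member of any of these lists passed in either direction.

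**Figure D3:**
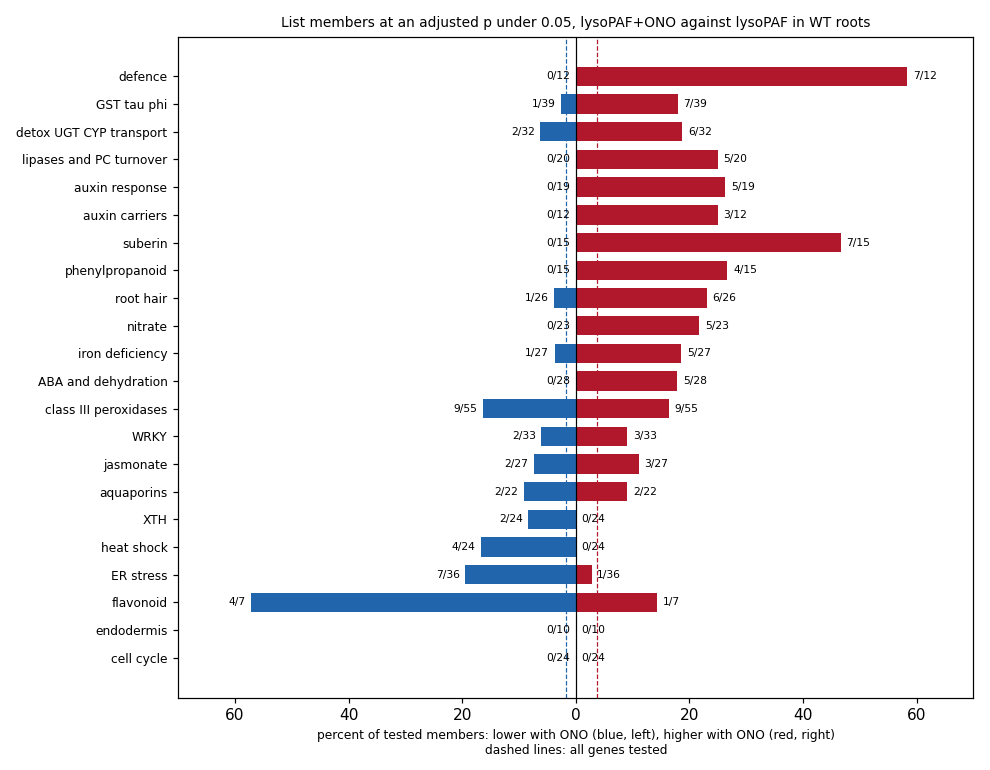
Percent of tested members at an adjusted p under 0.05 in 22 gene lists for lysoPAF+ONO against lysoPAF in WT roots, higher to the right in red and lower to the left in blue, with the number of members beside each bar; dashed lines mark all genes tested, 3.72% higher and 1.77% lower. The defence list reaches 7 of 12 on the higher side and the flavonoid list 4 of 7 on the lower side.

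Class III peroxidases, a large family of secreted wall enzymes, had 9 of 55 members higher, 9 lower and a median of 0.08. With 1 of the 6 compared libraries left out 6 to 8 were higher and 3 to 8 lower, the fewest lower without replicate 1 of lysoPAF, and without lpcat control replicate 2, 18 were higher and 12 lower. AT5G39580 had 1000.0, 1038 and 889 normalised counts with lysoPAF+ONO, 234, 212 and 232 with lysoPAF, and 234, 268 and 242 in control (2.104, SE 0.25, adjusted p = 1.88e-05). PER4 had 637, 629 and 587 against 231, 213 and 221 (1.47, SE 0.15, adjusted p = 3.53e-06). AT2G38380, with a near-identical neighbour, had 2808, 2683 and 3218 against 5435, 5288 and 5035 (-0.86, SE 0.09, adjusted p = 9.31e-06), and AT4G11290 had 730.1, 757 and 837 against 1243, 1310.5 and 1317 (-0.74, adjusted p = 0.000181). For all 4 the lysoPAF+ONO libraries were separate from the lysoPAF libraries.

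Among 22 aquaporins, the water and solute channels, 2 rose and 2 fell. PIP2;5 had 64.7, 84.3 and 103 normalised counts with lysoPAF+ONO against 38.7, 34.0 and 48.4 with lysoPAF, and PIP1;4 had 965, 956 and 888 against 655, 642 and 729.7. RD28 (PIP2;3) had 359.9, 347 and 363 against 552, 443 and 497, and the boric acid channel gene NIP5;1 had 401, 389.7 and 454 against 534, 578 and 575. With replicate 3 of lysoPAF+ONO left out, 4 aquaporins rose and 1 fell. Of 24 XTH genes, which cut and rejoin xyloglucan in the wall, 2 fell and 0 rose: XTH31 had 845, 968 and 1073 against 1634, 1724 and 1505 (-0.76, adjusted p = 3.76e-05) and XTH32 had 59.0, 53.7 and 61.9 against 102, 73.8 and 104. Without lpcat control replicate 2, 5 XTH genes rose and 2 fell. XTH32 and RD28 passed in 13 of 18 alternatives. Of 12 genes of peroxisomal beta-oxidation, the breakdown of fatty acids, 2 rose and 1 fell. ACX3, an acyl-CoA oxidase, had 1418, 1359 and 1224 against 929, 1093 and 990.4. MFP2 had 2073, 2091 and 1838 against 1559.6, 1632 and 1620.2. The thiolase gene KAT5 had 46.9, 56.9 and 55.0 against 101, 111 and 117 (-1.04, adjusted p = 0.00177). Of 8 hypoxia genes 1 rose, the sucrose synthase gene SUS1 with 341, 369 and 489 against 244, 301 and 283, and 1 fell, the alcohol dehydrogenase gene ADH1 with 137, 109.5 and 204 against 287, 290.3 and 293 (past the threshold in 15 of 18 alternatives). Of 12 fatty acid and triacylglycerol, 9 autophagy, 5 sugar starvation and 5 rapid stress genes 0 passed, with 3, 1, 0 and 1 at an unadjusted p under 0.05.

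Reads from organelle genomes were few. Mitochondrially encoded genes took 0.0220%, 0.0267% and 0.0224% of the reads with lysoPAF+ONO against 0.0417%, 0.0807% and 0.0391% with lysoPAF, means of 0.0237% ± 0.00262 and 0.0539% ± 0.0233 (SD, n = 3 each; 0.0250% ± 0.00196 in control). The lysoPAF+ONO libraries all lay below the lysoPAF libraries, and the exact two-sided permutation test gave p = 0.10, the smallest value that 3 against 3 libraries allow. Of 55 tested mitochondrial genes 0 passed, with a median of -0.35, and at most 4 were lower in any alternative. At an unadjusted p under 0.05 there were 8 of the 55, beside 19.5% of all genes tested. Of 74 plastid genes 1 fell, with a median of -0.58. Over the alternatives 0 to 2 fell, and the median lay between -1.27 and -0.094. Plastid genes took 0.00117%, 0.00123% and 0.00144% of the reads with lysoPAF+ONO, against 0.00150%, 0.00603% and 0.00173% with lysoPAF. The difference in mean percent was -0.00181, and -0.00034 without replicate 2 of lysoPAF.

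The same ONO step was measured in lpcat, in 6 libraries that are not in the WT contrast. Those libraries do enter the shared estimate of the spread behind the WT calls, so the 2 sets of calls are not fully independent. There, 299 genes were called higher (1.26%) and 54 lower (0.227%). Of the 271 genes called higher in WT, 246 (90.8%) also had a positive difference in lpcat, against 51.5% of all genes, and 134 (49.4%) were higher at an adjusted p under 0.05, against 3.55% of all genes. By the call rule 110 were shared, which is 40.6% of the WT list and 36.8% of the lpcat list. The median difference of all 271 was 1.01 in lpcat and 1.58 in WT. Of the 90 genes called lower in WT, 60 (66.7%) had a negative difference in lpcat, against 48.1% of all genes, 16 (17.78%) were lower at an adjusted p under 0.05, against 2.51% of all genes, and 4 were higher. By the call rule 7 were shared, 7.78% of the WT list and 13.0% of the lpcat list. The median difference of all 90 was -0.31 in lpcat and -1.54 in WT. These genes were chosen by their WT values, and that choice by itself favours the larger median in WT.

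**Figure D4:**
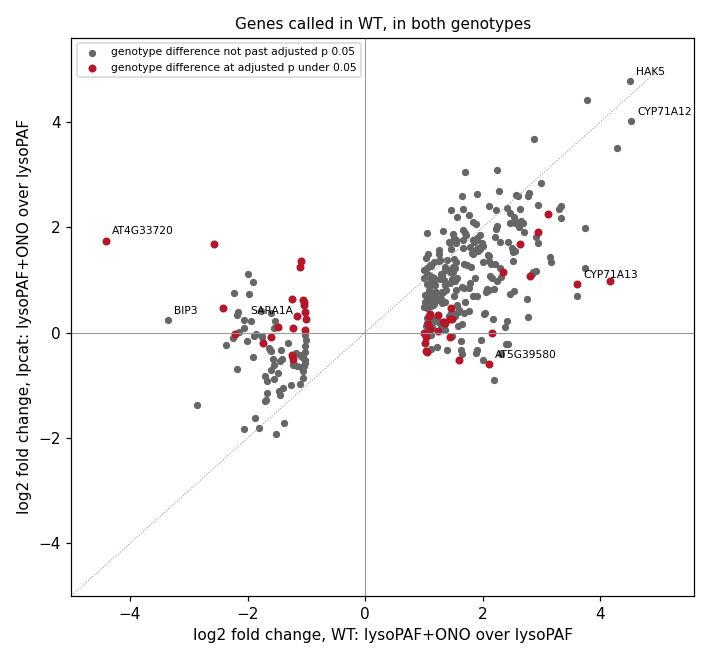
Log2 fold change of lysoPAF+ONO over lysoPAF in WT (horizontal) and in lpcat (vertical) for the 361 genes called in WT; red points differ between the genotypes at an adjusted p under 0.05, and the dotted line marks equal values. CYP71A12 and HAK5 lie near the line at 4.52 and 4.51 in WT, while BIP3 and AT4G33720 lie low in WT and above 0 in lpcat.

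The difference between the genotypes was tested by itself, as the ONO step in lpcat minus that in WT. Over all genes 299 differed at an adjusted p under 0.05 (1.26%), 106 with a more positive step in lpcat and 193 with a more negative one. Among the genes called higher in WT, 28 differed, and in all 28 the step was more negative in lpcat. Among those called lower, 20 differed, and in all 20 the step was more positive in lpcat. These signs do not tell a smaller change from an opposite change. AT5G39580 and AT4G33720 had differences of the opposite sign in lpcat, but neither passed there (for AT4G33720 1.75, limma adjusted p = 0.3). The choice of genes by their WT values also favours these signs, so the counts say little by themselves. The count of 299 was sensitive to single libraries, with 1179 when lpcat control replicate 2 was left out, 61, 85 and 353 without replicates 1, 2 and 3 of WT lysoPAF+ONO, and 132, 94 and 135 without replicates 1, 2 and 3 of WT lysoPAF.

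CYP71A12 and HAK5 rose with ONO in both genotypes. In lpcat, CYP71A12 had 1829, 2557 and 2675 normalised counts with lysoPAF+ONO and 125, 135 and 171 with lysoPAF, and HAK5 had 739.5, 1046 and 1046 against 39.6, 33.2 and 27.4. Their differences between lpcat and WT were -0.50 and 0.27 and did not pass (adjusted p = 0.202 and 0.891). CYP81F2 rose in lpcat to 522, 631 and 699 against 117, 129 and 141, by 0.87 less than in WT on the log2 scale (a difference of -0.87, adjusted p = 0.0131). GH3.3 had 153, 155 and 173 in lpcat with lysoPAF+ONO and 74.7, 87.6 and 66.1 in lpcat with lysoPAF, and its lpcat and WT libraries overlapped with ONO but not without it (-1.73, adjusted p = 0.0138). The peroxidase gene AT5G39580 had 373, 459 and 553 in lpcat with lysoPAF+ONO and 572, 823 and 695 in lpcat with lysoPAF, the opposite order to WT (-2.70, adjusted p = 0.000613). AT2G38380 had 5443, 4854 and 4872 against 4994, 4137 and 4053 in lpcat, where it did not pass, and fell in WT (1.07, adjusted p = 0.000566). The interactions of CYP81F2, GH3.3, AT5G39580 and AT2G38380 passed in all 17 alternatives in which they were computed.

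Of the 36 ER stress genes, 1 had a step that differed between lpcat and WT at an adjusted p under 0.05, TIN1. BIP3 had 103, 139 and 117 normalised counts in lpcat with lysoPAF+ONO and 78.2, 105 and 122 in lpcat with lysoPAF (0.25, adjusted p = 0.9), groups that overlap. The difference from WT was 3.604 (adjusted p = 0.0927), which did not pass, although it passed in 5 of 17 alternatives (adjusted p from 6.53e-07 to 0.19), among them the one without lpcat control replicate 2 (4.42e-06). SARA1A had 35.3, 40.2 and 39.3 in lpcat with lysoPAF+ONO and 29.9, 45.3 and 24.6 in lpcat with lysoPAF, and its difference from WT was 2.31 (adjusted p = 0.193). That difference passed in 2 of 17 alternatives (adjusted p from 0.00268 to 0.335), among them the one without lpcat control replicate 2 (0.0156). TIN1 had 20.7, 37.4 and 31.4 against 36.0, 21.1 and 34.0 in lpcat, and differed from WT by 2.19 (adjusted p = 0.0196), past the threshold in 13 of 17 alternatives. ATERDJ3B and CNX1 stood at -0.23 and -0.28 in lpcat (adjusted p = 0.177 and 0.0646), and their differences from WT did not pass (adjusted p = 0.22 and 0.623). AT4G33720 had 119, 183 and 177 against 94.1, 27.2 and 37.8 in lpcat, with a difference of 6.16 (adjusted p = 0.0249). That difference passed in 11 of 17 alternatives, with adjusted p from 0.000395 without replicate 3 of WT lysoPAF+ONO to 0.0791 without replicate 2, and it did not pass without replicate 1 of WT lysoPAF+ONO or any 1 of the WT lysoPAF libraries (adjusted p = 0.059, 0.0555, 0.0714 and 0.0568).

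**Figure D5:**
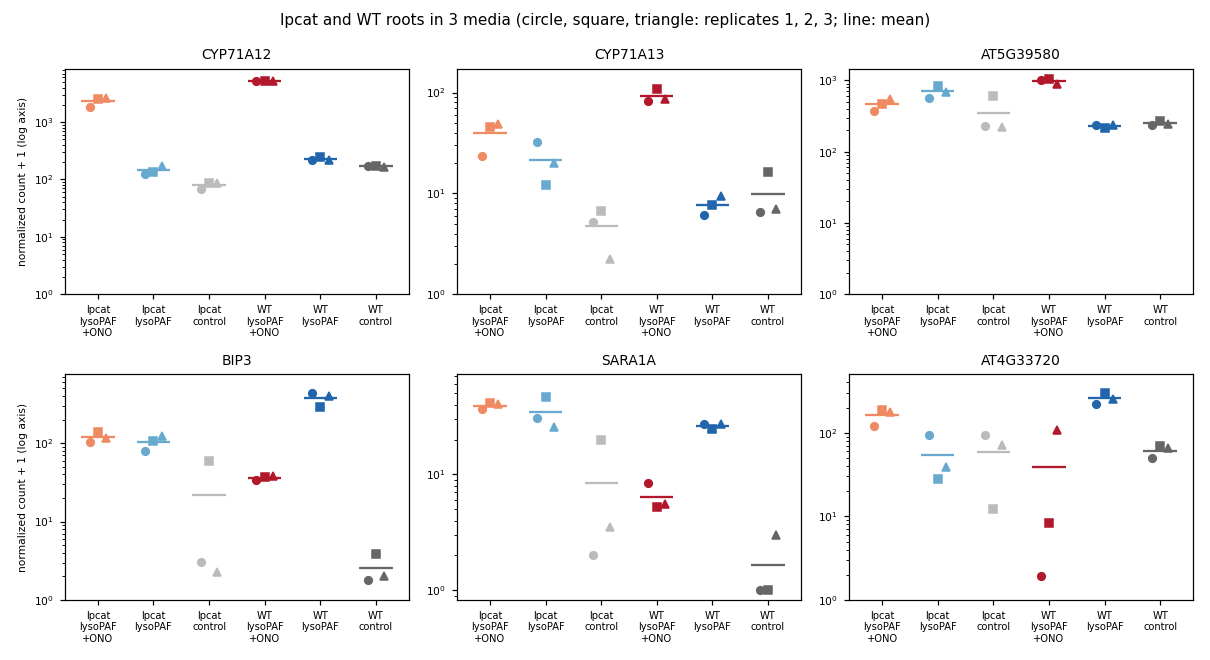
Normalised counts plus 1 (log axis) of 6 genes in lpcat (lysoPAF+ONO, lysoPAF and control) and WT (the same media); circle, square and triangle are replicates 1, 2 and 3, and the line is the mean. CYP71A12 is high with ONO in both genotypes, between 1829 and 2675 in lpcat and between 5151 and 5301 in WT, whereas BIP3 lies between 103 and 139 with ONO in lpcat and between 32.8 and 36.7 in WT.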

How the data were processed

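Total RNA of whole roots was sequenced in 18 paired-end libraries, 3 in each of 6 groups. Per the labels and the study's methods, the authors' tools were STAR 2.4.0j (alignment, TAIR10 genome), StringTie 1.0.3, HTSeq 0.6.0 (counting) and DESeq2 1.12.4 (normalisation). The strand setting of the counting is not given in the sources used here, so that reads of overlapping antisense genes cannot be told apart, and nothing says whether replicates were separate cultures, so p-values measure the spread between these libraries. The deposited values are a signal, counts that the authors divided by a size factor per library. Dividing each library by its smallest step (0.609 to 1.24) gave whole reads for 100.0% of the 400470 values above 0 (tolerance 0.001 reads), and totals of 8681898 to 16767002 reads. All columns were matched to a sample (0 left out), and the table holds no comparisons of the authors.

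The main test was limma 3.58.1 (trend, R 4.3.3) on log2(value + 1) over all 18 libraries with 1 coefficient per group and 12 residual degrees of freedom, for the 23760 of 35197 rows with at least 5 reads over all libraries, with Benjamini-Hochberg adjustment. Named genes were (a) LPCAT1, LPCAT2, the secretory PLA2 genes and the genes the study names, (b) 12 genes a direction with the greatest fold change, from called nuclear genes with an AGI code, a mean of at least 1 CPM and no overlap between the groups, and (c) up to 4 passing members per list with the smallest p. Named by these rules were 131 genes, and exceptions are marked. The comparison and the 45 gene lists (800 genes) were chosen with earlier results of these data known. Some genes that the naming rule selects are not reported here, but the counts over lists include them. Where a gene code had several rows the one with the most reads was used. Alternatives were edgeR 4.0.16 and DESeq2 1.42.0 on the recovered reads, pseudocounts of 0.5 and 5, other filters and scalings, fewer libraries, single libraries left out, a replicate block and a threshold of 0.01. The fits were tested on simulated data. Gene names, coordinates and the windows before gene starts came from RefSeq TAIR10.1, which matched 33993 of 34696 rows with a code.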

Additional observations from a re-analysis of the deposited data

Results flagged for a closer look

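Among the named genes, the step of lysoPAF+ONO against lysoPAF differed between lpcat and WT at an adjusted p under 0.05 in 26 (limma interaction term over all genes, coded lpcat minus WT, log2 scale). With only 3 libraries a group, no test for single outlying libraries was made.

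In indolic defence and detoxification the step was more negative in lpcat for CYP71A13 (-2.69), CYP81F2 (-0.87), IGMT2 (-1.02) and GSTF6 (-0.95), which rose in WT. Among lipid genes it was more negative for GDPD2 (-0.78), XPL1 (-0.59) and ACX3 (-0.49). XPL1 stood at 4021, 3918 and 4237 normalised counts in lpcat with lysoPAF+ONO and 3892, 3654 and 4002 in lpcat with lysoPAF, levels above those of WT in both media.

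For GH3.3 the difference was -1.73, for the iron-deficiency gene AT3G13610 -1.13, for AMT1;1 -0.84, for NDB2 -0.79 and for the trafficking gene AT1G05020 -1.25. In cell-type genes it was -0.77 for RHS16, -0.55 for SHV2 and -1.21 for MC9. MC9 had 388, 343 and 356 normalised counts in lpcat with lysoPAF+ONO and 378, 485 and 386 in lpcat with lysoPAF, groups that overlap.

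The peroxidase genes PER4 and AT5G39580 differed by -1.21 and -2.70, and AT2G38380 by 1.07. The aquaporins PIP2;5 and PIP1;4 differed by -1.37 and -1.05. PIP1;4 fell in lpcat, with 657, 560.4 and 645 normalised counts with lysoPAF+ONO against 838, 1005 and 932 with lysoPAF, whereas it rose in WT.

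The step was more positive in lpcat for genes that fell in WT, namely AT4G33720 (6.16), AT3G05950 (4.27), TIN1 (2.19), VSP1 (1.22), WRKY60 (0.68) and APR3 (0.58). For AT4G33720 and AT3G05950 the values of WT lysoPAF+ONO replicate 3 lay above those of its replicates. Their differences passed in 11 of 17 alternatives each, with adjusted p from 0.000395 to 0.0791 and from 0.00144 to 0.0909, the lowest without that library and the highest without replicate 2 of WT lysoPAF+ONO.

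The interactions of CYP81F2, AMT1;1, APR3, MC9, PER4, AT2G38380, AT5G39580, VSP1, GH3.3 and PIP1;4 passed in all 17 alternatives in which they were computed. The other 16 passed in fewer. AT3G13610 passed in 15 of 17, IGMT2, XPL1 and PIP2;5 in 14, TIN1 and ACX3 in 13, and GDPD2 and RHS16 in 12. AT4G33720, AT3G05950, NDB2 and SHV2 passed in 11, GSTF6 in 10, and AT1G05020, CYP71A13 and WRKY60 in 9. With single WT libraries left out, adjusted p reached 0.135 for AT1G05020, 0.117 for CYP71A13, 0.121 for NDB2, 0.143 for SHV2, 0.116 for GSTF6 and 0.126 for WRKY60. CYP71A13, GSTF6 and WRKY60 did not pass without any 1 of the 6 compared WT libraries, and AT1G05020, AT4G33720, AT3G05950, NDB2, SHV2, GDPD2 and RHS16 passed without replicate 3 of WT lysoPAF+ONO and not without any other 1 of the 6.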

How the results depend on the processing

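Of the 116 named genes that passed, 71 also passed in every alternative at an adjusted p under 0.05 and 0 reversed. The counts of 271 higher and 90 lower genes were 259 and 69 with edgeR (TMM), 255 and 68 with DESeq2 on the recovered reads, and 241 and 74 with edgeR's own filter on low counts. A pseudocount of 5 gave 54 lower genes, 37 of them with the same direction in lpcat. The interaction count of 299 was 648 with DESeq2 and 1002 with only the compared libraries. At an adjusted p under 0.01 there were 168 higher and 40 lower genes, of which 158 and 30 had the same direction and 74 and 6 also passed in lpcat, and 31 interactions. The cause of these shifts was not tested, apart from the stricter threshold itself. With single libraries left out, the lowest and highest counts were 198 and 374 for higher genes, 46 and 154 for lower genes and 61 and 1179 for interactions. For higher genes they were 183 and 330 with the same direction in lpcat and 106 and 189 passing there, and for lower genes 36 and 103 and 14 and 36. The highest of each came without lpcat control replicate 2. Every reversed value belonged to a gene that never passed. LPLAT2 (LPCAT2) stood at -0.0064 with edgeR (TMM) and between -0.050 and 0.11 with single libraries left out (-0.015 and -0.020 among them). PLA2-GAMMA stood at -0.00039 with scaling by nuclear genes and between -0.35 and 0.35 with single libraries left out (-0.17 without lysoPAF replicate 1 or 2). PRA1.F1 lay between -0.51 and 1.105 with single libraries left out. Same-numbered lysoPAF+ONO and lysoPAF libraries correlated at 0.03, 0.01 and 0.05 in their deviations, so the numbers were not taken as pairs. With a replicate block there were 279 higher and 93 lower genes, 266 and 86 of them shared, and 355 interactions. At the depth of these libraries, differences in genes with a few reads, such as PLA2-GAMMA and PLA2-DELTA, were not detectable.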
